A study of Mus musculus with 3 samples.

Results

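The Notch pathway was examined through 10 genes measured in mouse otic placodes: the receptor genes Notch1 and Notch2, the ligand genes Dll1 and Jag1, the modulator genes Lfng and Nrarp, and the target genes Hes1, Hes5, Hey1 and Hey2. Members were found by name, as every non-control probe in the scanner files whose gene name is one of the 10. That rule uses no measured value, though the genes were chosen with earlier results of these data known. The array lists 27962 gene names, and the 10 genes had 14 of its 41174 probes. Of these 14, 13 were well above background and were tested, among 25506 tested probes. All probes of a gene were kept apart.

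The otic placode is the patch of head ectoderm beside the hindbrain that forms the inner ear. Placodal ectoderm was dissected from untreated embryos at the 4 to 8 somite stage. One group was Fgf3-/-;Fgf10-/- (double null), which lacks the fibroblast growth factors Fgf3 and Fgf10 that signal to this ectoderm, and the other was Fgf3+/-;Fgf10+/- (double heterozygote), so that the controls also carried 1 null copy of each gene and no wild-type placodes were compared. Each of 3 arrays held RNA from 1 pool of 10 placodes of each genotype, with the pools described by the labels as biological replicates. Cy3 marked the double heterozygote and Cy5 the double null on every array. With no swap of dyes, genotype and dye effects of a probe cannot be told apart. The number of embryos behind a pool is not stated in the sources used here.

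Notch signalling passes between touching cells. Ligands of the Delta and Jagged families on one cell bind Notch receptors on its neighbour, the receptor is cut by an ADAM protease and then by the gamma-secretase complex, and the freed intracellular domain enters the nucleus, where it joins the DNA-binding protein Rbpj and a Mastermind coactivator and switches on genes such as those of the Hes and Hey families of repressors. In the ear the pathway is known for promoting placodal over epidermal fate in early ectoderm, and later for its part in sensory patches and in the choice between hair cells and supporting cells.

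None of the 13 tested member probes passed the threshold in either direction (limma, Benjamini-Hochberg adjusted p under 0.05 over all tested probes). The adjusted p-values lay between 0.129 and 0.903. Over all tested probes 384 of 25506, or 1.51%, passed, 310 of them higher and 74 lower in the double null. Hey1 was the single member probe with an unadjusted p under 0.05, a level that 20.2% of all tested probes reached. The mean ratios of 8 member probes were negative and those of 5 were positive, with a median log2 ratio (double null over double heterozygote) of -0.05 against 0.01 over all tested probes. The median size of the mean log2 ratio, without its sign, was 0.08 for the members and 0.07 over all tested probes. The 95% intervals of the 13 member ratios, each for 1 probe and not adjusted for their number, together spanned 0.743 to 1.38 of the double heterozygote level.

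**Figure D1:**
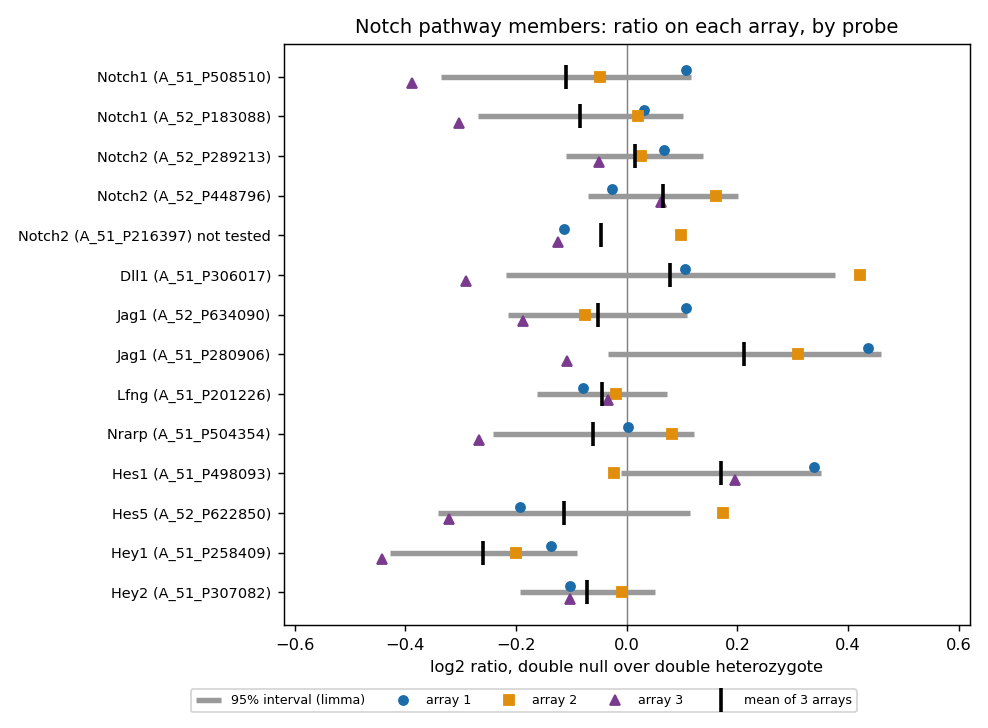
Log2 ratio of double null over double heterozygote for each of the 14 member probes (horizontal axis), with 1 symbol per array, the mean of the 3 arrays as a black bar and the 95% interval of the mean from limma in grey for the 13 tested probes. The interval of Hey1 is the only one that lies wholly on one side of 0, and 9 of the 13 tested probes have their lowest ratio on array 3.

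Marker lists were read beside the tissue label, though ratios between genotypes cannot show which tissue was dissected. Of 9 otic placode markers, 7 were tested, among them Pax8, Hmx3 and Sox9. The defining marker Pax2 was not well above background, and no probe was named Foxi3. All 7 had a negative mean ratio, and Sox9 passed the threshold at -0.69 ± 0.11 (moderated SE, n = 3 arrays, limma adjusted p = 0.0475). The targeted genes gave array ratios of -0.69, -0.06 and -0.69 for Fgf3 (limma adjusted p = 0.121) and of 0.31, -0.11 and 0.23 for Fgf10 (adjusted p = 0.386). The sources used here do not say whether either probe lies in deleted sequence, and the values check nothing about the labels. Between 26452 and 29177 spots per channel and array were well above background and the precision is limited by having 3 arrays. As every pool is a mixture of cells, fewer cells of a type and less RNA per cell cannot be told apart in any value below.

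The receptors were examined first. Notch1 encodes a receptor expressed widely in early epithelia, and the array carries 2 probes for it, which adjoin on the minus strand of chromosome 2 at chr2:26466563-26466621 and chr2:26466621-26466680 (mm7). Their first 30 bases, given because the pair reads neighbouring stretches of the same transcript with no shared run longer than 5 bases, are as follows, 5′ to 3′ as deposited.
Notch1 A_51_P508510: ggcactaggggaaaaacatatctgttccaa
Notch1 A_52_P183088: tatgtacttttattttccacagaaacactg

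For the first Notch1 probe, A_51_P508510, the normalized log2 intensities of the double heterozygote pools on arrays 1, 2 and 3 were 9.65, 9.84 and 10.04. Those of the double null pools were 9.75, 9.79 and 9.65. The genotypes overlapped, and the array ratios were 0.11, -0.05 and -0.39. The mean log2 ratio was -0.11 ± 0.094 (moderated SE, n = 3 arrays), with a 95% interval from -0.34 to 0.12 and limma adjusted p = 0.549. The second Notch1 probe, A_52_P183088, gave 0.03, 0.02 and -0.30, with a mean of -0.08 ± 0.077 (adjusted p = 0.576). Array by array the probes differed by 0.08, -0.07 and -0.08, so both showed the low value on array 3. Without array 3 their means were 0.03 and 0.03.

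Notch2, which encodes a second receptor of the same build, has 3 probes on the plus strand of chromosome 3. The probe at chr3:98021215-98021274 (mm7), A_52_P289213, had array ratios of 0.07, 0.03 and -0.05 and a mean of 0.01 ± 0.052 (moderated SE, n = 3, limma adjusted p = 0.903). Its 6 pools lay between 11.83 and 12.05, with the genotypes overlapping. The probe at chr3:98020144-98020203, A_52_P448796, had ratios of -0.03, 0.16 and 0.06 and a mean of 0.07 ± 0.057 (adjusted p = 0.553). The interval of the first ran from -0.11 to 0.14 and that of the second from -0.07 to 0.20. The third probe, A_51_P216397 at chr3:98018506-98018565, was well above background on 1 array in the Cy5 channel and on none in Cy3, and was not tested. Of the members, Notch2 had the mean ratio nearest to 0, by its first probe.

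**Figure D2:**
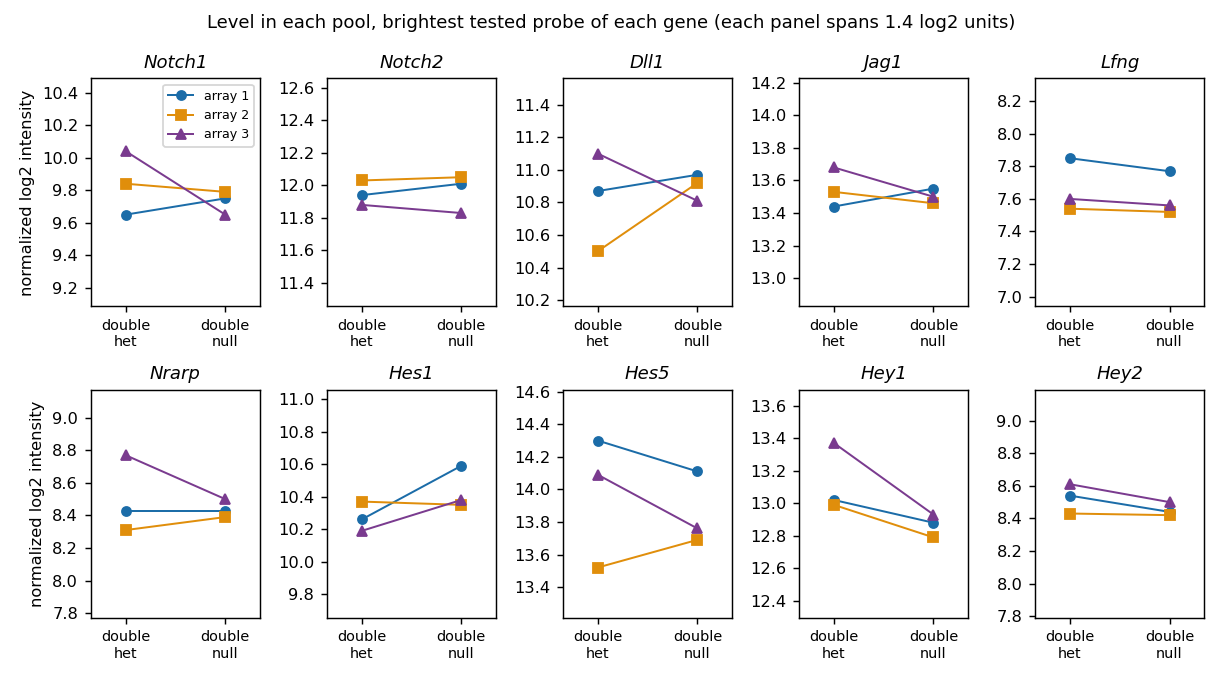
Normalized log2 intensity (vertical axis) of each pool for the brightest tested probe of each member gene, with the double heterozygote and double null pools of an array joined by a line. Each panel spans 1.4 log2 units, and levels are not comparable between panels. In Hey1 all 3 null pools lie below all 3 heterozygote pools, while in the other 9 panels the genotypes overlap.

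Among the members the widest spread between arrays was that of Dll1. The gene encodes a Delta-type ligand that activates Notch in trans, and its probe A_51_P306017 at chr17:13604553-13604612 (minus strand, mm7) was printed as 10 spots per array. Its heterozygote pools were at 10.87, 10.50 and 11.10 and its null pools at 10.97, 10.92 and 10.81. The heterozygote pool on array 2 was the lowest of the 6 and that on array 3 the highest, with all null pools between them. The array ratios of 0.11, 0.42 and -0.29 gave a mean of 0.08 ± 0.12 (moderated SE, n = 3), an interval from -0.22 to 0.38 and limma adjusted p = 0.755. Without array 2 the mean was -0.09, and without array 3 it was 0.26.

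The repeat spots show how precisely a ratio was read within an array. The SD over the 10 Dll1 spots was 0.039, 0.018 and 0.017 on arrays 1, 2 and 3. The SD of the array means was 0.357, and the array means ranged over 0.71. On array 2 every Dll1 spot lay between 0.39 and 0.44, and on array 3 every spot lay between -0.32 and -0.27. The first Notch1 probe was also printed 10 times and had spot SDs of 0.046, 0.043 and 0.048 against an SD between arrays of 0.253. For both probes the arrays thus differed by more than their repeat spots did. Whether this spread arose in the pools, the amplification or the labelling was not tested.

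**Figure D3:**
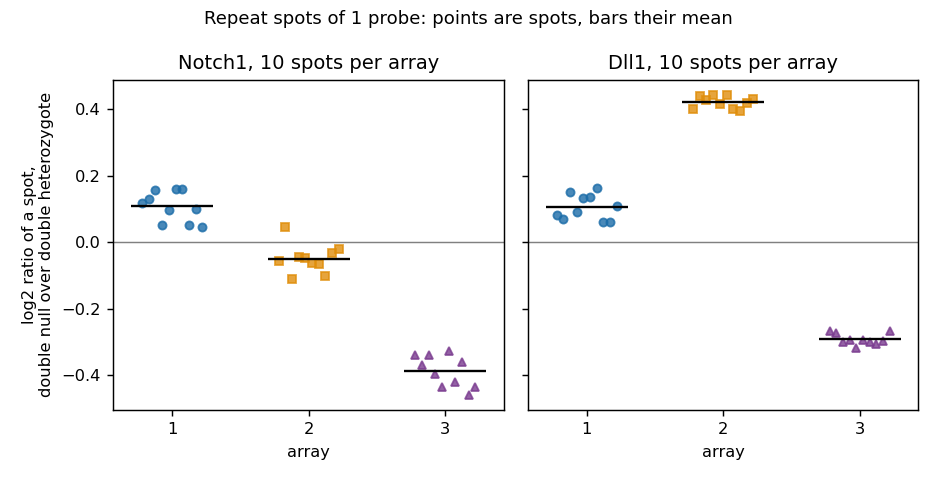
Log2 ratio of double null over double heterozygote (vertical axis) for each of the 10 spots of the Notch1 probe A_51_P508510 and of the Dll1 probe on the 3 arrays (horizontal axis), with a black bar at the mean of the spots. The Dll1 spots of the 3 arrays form separate bands around 0.11, 0.42 and -0.29.

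Jag1, which encodes a Jagged-type ligand present in otic ectoderm and later in the prosensory region, has 2 probes on the minus strand of chromosome 2, 1450 bases apart. Their first 30 bases are printed because the probes of this gene gave unlike ratios.
Jag1 A_52_P634090: ggagtattctcataagctagttgaatactt
Jag1 A_51_P280906: acgagaacaaaaactccaaaatgtcaaaaa

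The Jag1 probe A_52_P634090, at chr2:136822550-136822609 (mm7), had heterozygote levels of 13.44, 13.53 and 13.68 and null levels of 13.55, 13.46 and 13.50. Its ratios of 0.11, -0.08 and -0.19 averaged -0.05 ± 0.067 (moderated SE, n = 3, limma adjusted p = 0.7). The other Jag1 probe, A_51_P280906 at chr2:136824059-136824118, had heterozygote levels of 7.74, 7.80 and 7.47 and null levels of 8.17, 8.11 and 7.36. Its array 3 null pool was the lowest of the 6 and its other null pools were the highest. The ratios of 0.44, 0.31 and -0.11 averaged 0.21 ± 0.10, the largest positive mean of any member probe (95% interval from -0.03 to 0.46, adjusted p = 0.302). The first probe minus the second was -0.33, -0.38 and -0.08 on the 3 arrays, a mean of -0.26 with an SD of 0.163. This difference had the same direction on every array, and it was not tested. The pair shares no run longer than 8 bases.

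The modulators lay close to 0. Lfng encodes a Fringe glycosyltransferase that extends sugars on the Notch extracellular domain and changes which ligands it answers to. Its probe A_51_P201226 (chr5:139585160-139585219, plus strand, mm7) had ratios of -0.08, -0.02 and -0.03 and a mean of -0.04 ± 0.049 (moderated SE, n = 3, limma adjusted p = 0.646). Its SD over arrays of 0.03 was the smallest of the tested members. It was also the dimmest tested member probe, at a mean log2 intensity of 7.64. With the scanner software's processed signals the Lfng mean was -0.14 (limma adjusted p = 0.361). Nrarp encodes an ankyrin-repeat protein that is induced by Notch and dampens it. Its probe A_51_P504354 (chr2:25189829-25189888, plus strand) had heterozygote levels of 8.43, 8.31 and 8.77 and null levels of 8.43, 8.39 and 8.50. The highest pool was the heterozygote on array 3, where the ratio was -0.27, against 0.0028 and 0.08 on arrays 1 and 2. The mean was -0.06 ± 0.076 (adjusted p = 0.689).

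The 4 target genes encode basic helix-loop-helix repressors and had 1 probe each. Their first 30 bases are given because these are the members grouped as targets. Whether they report pathway output in these placodes was not tested.
Hes1 A_51_P498093: acactgattttggatgcacttaagaaagat
Hes5 A_52_P622850: acgatgatccttaaaggattcctttgtatg
Hey1 A_51_P258409: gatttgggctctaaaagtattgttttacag
Hey2 A_51_P307082: ccagaggctcattgacaccaactcaaaaac

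Hey1, at chr3:8669867-8669926 (minus strand, mm7), had heterozygote levels of 13.02, 12.99 and 13.37 and null levels of 12.88, 12.79 and 12.93. All 3 null pools were below all 3 heterozygote pools, at 12.87 ± 0.07 against 13.13 ± 0.21 (SD, n = 3). It was the single member probe of 13 without overlap, where 16.4% of all tested probes had none. The ratios were -0.14, -0.20 and -0.44. The mean of -0.26 ± 0.070 (moderated SE, n = 3), or 0.835 of the heterozygote level, had a 95% interval from -0.43 to -0.09, unadjusted p = 0.00878 and limma adjusted p = 0.129, so it did not pass. The size and sign of the Hey1 ratio depended on the normalization. With median centring of the arrays, which raised the tested probes as a whole, the mean was 0.29 (limma adjusted p = 0.0116). In that setting 76.4% of all tested probes passed. With that shift removed by recentring on the tested probes the Hey1 mean was -0.03 (adjusted p = 0.708).

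Hey2, the paralogue of Hey1, had ratios of -0.10, -0.0081 and -0.10 and a mean of -0.07 ± 0.051 (moderated SE, n = 3, limma adjusted p = 0.473) at chr10:30613567-30613626 (minus strand, mm7). Its pools overlapped, at 8.54, 8.43 and 8.61 in the heterozygote and 8.44, 8.42 and 8.50 in the null. Hey1, Hey2 and Lfng were the 3 member probes of 13 with 1 sign on all arrays, each negative. Over all tested probes 43.8% had 1 sign on all arrays.

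Hes1, a target that also oscillates and holds progenitors undifferentiated, had the opposite sign. Its probe spans chr16:29738743-29739038 (plus strand, mm7). Heterozygote levels were 10.26, 10.37 and 10.19 and null levels were 10.59, 10.35 and 10.38. The null pool of array 1 was the highest, and the array 2 pools were nearly equal. The ratios of 0.34, -0.02 and 0.20 averaged 0.17 ± 0.076 (moderated SE, n = 3), with an interval from -0.011 to 0.35, unadjusted p = 0.0618 and limma adjusted p = 0.27.

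Hes5, a target that responds sharply to Notch in neural tissue, was measured at chr4:153951780-153951839 (plus strand, mm7). Heterozygote levels were 14.30, 13.52 and 14.09, the widest range of the heterozygote pools for any member, and null levels were 14.11, 13.69 and 13.76. The array 2 heterozygote pool was the lowest of the 6. The ratios of -0.19, 0.17 and -0.32 averaged -0.11 ± 0.095 (moderated SE, n = 3, limma adjusted p = 0.54), with an interval from -0.34 to 0.11. Of the targets, Hes1 was thus positive on arrays 1 and 3, where Hes5, Hey1 and Hey2 were negative.

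The member ratios differed by array. The median log2 ratio of the 13 probes was 0.03 on array 1, 0.02 on array 2 and -0.19 on array 3, while the medians over all tested probes were 0.0131, 0.0093 and 0.0092. Of the 13, 5 were negative on array 1, 6 on array 2 and 11 on array 3. Array 3 gave the lowest of the 3 ratios for 9 of 13 member probes, and for 34.3% of all tested probes. The median SD over arrays was 0.18 for the members and 0.09 over all tested probes. These are descriptions of 3 arrays, and no test over the list was made.

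Marker lists of other tissues that a dissection could include also differed by array, and their part in the member values was not tested. On arrays 1, 2 and 3 the median log2 ratio of 4 of 4 neural crest markers (Sox10, Foxd3, Tfap2b and Erbb3) was -0.14, 0.0008 and -0.38. That of 6 of 6 hindbrain and neural plate markers was -0.11, -0.17 and -0.23, and that of 5 of 5 surface ectoderm markers was -0.30, 0.0003 and -0.11. The 7 tested otic placode markers had medians of -0.40, -0.21 and -0.30. The members had their lowest median on array 3, as did the neural crest, hindbrain, neuroblast and endothelial lists. Summed over its markers on the linear scale, the neural crest list lay between 5590 and 6940 in the heterozygote pools and between 5330 and 5540 in the null pools. The hindbrain list lay between 59900 and 76700 and between 56400 and 63200, the surface ectoderm list between 81900 and 90100 and between 72700 and 85300, and the otic placode list between 22500 and 25700 and between 17100 and 19300.

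Markers of deeper tissues gave other patterns. Endothelial markers, of which 6 of 7 were tested and Pecam1 was not well above background, had medians of 1.13, 0.21 and 0.16 and summed levels of 1930 to 2460 in the heterozygote and 1930 to 3340 in the null pools. Within that list Sox17, also an endoderm gene, passed the threshold in the other direction at -0.54 ± 0.065 (moderated SE, n = 3, limma adjusted p = 0.0155). Blood markers, 2 of 4 tested with Hbb-y and Gata1 not well above background, had medians of 1.29, -0.27 and 2.20 and sums of 591 to 1120 against 449 to 6430. Heart markers, 4 of 4, had medians of 0.10, 0.53 and 0.64 and sums of 1750 to 2600 against 2570 to 4260. Presomitic and somitic markers, 4 of 5 with Mesp2 not well above background, had medians of 0.10, 0.0028 and 0.0037 and sums of 2950 to 3550 against 3060 to 3810. Neuroblast markers, 5 of 6 with Neurod1 not well above background, had medians of 0.04, -0.05 and -0.11 and sums of 1610 to 2040 against 1530 to 2070.

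The rest of the pathway was followed with 50 further genes in 7 roles. All 50 were on the array, with 87 probes, and 46 had a tested probe (Dll4, Hes7, Heyl and Aph1c did not). Of 75 tested probes 1 passed the threshold, higher in the double null, and none passed lower, against 1.51% of all tested probes. An unadjusted p under 0.05 was reached by 17 probes, 10 higher and 7 lower, against 20.2% of all tested probes. The median log2 ratio was 0.0045, and 26 of the 75 had 1 sign on all arrays, against 43.8% of all tested probes. Among the uncalled probes named for having both 1 sign and an unadjusted p under 0.05, limma adjusted p-values lay between 0.0885 and 0.239. Other probes of the same genes, given beside them, are outside this range.

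The probe that passed belongs to Dtx4, a member of the Deltex family of ubiquitin ligases that bind the Notch intracellular domain. Probe A_51_P495212 had ratios of 0.39, 0.43 and 0.53 and a mean of 0.45 ± 0.054 (moderated SE, n = 3, limma adjusted p = 0.014). The other 2 Dtx4 probes did not follow it, with means of -0.11 (adjusted p = 0.284) and 0.05 (adjusted p = 0.731). The Dtx4 call was lost without array 2 (adjusted p = 0.06), without array 3 (0.101) and with the scanner software's processed signals (0.207). In the same role, ligand endocytosis and receptor sorting, probes of the ubiquitin ligase genes Neurl1a at 0.18, Dtx3 at 0.16 and Neurl1b at 0.12 were positive on all arrays without passing. The other Neurl1a probe was at 0.15, with -0.03 on array 2, and the other Dtx3 probe was at -0.08.

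In the nucleus the lowest value was that of Rbpj, the DNA-binding partner of Notch, whose ratios of -0.25, -0.21 and -0.21 averaged -0.22 ± 0.048 (moderated SE, n = 3, limma adjusted p = 0.0885). Its array values were nearly equal, and it did not pass. With an intensity trend in limma's prior variance, Rbpj passed (adjusted p = 0.0336). In that setting 993 of all tested probes passed, against 384 in the setting as reported. The limma adjusted p of Rbpj was 0.219 with the processed signals and 0.223 to 0.228 with an array left out. With median centring the Rbpj mean was 0.27, and after recentring -0.05. Crebbp, an acetyltransferase that serves as a coactivator, was at -0.19 by one probe (adjusted p = 0.138) and 0.05 by another. Snw1, a nuclear cofactor of Rbpj, was at -0.13 and -0.06 by its 2 probes. The Mastermind gene Maml1 was positive at 0.21 (adjusted p = 0.119).

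Proteases that cut the receptor lay on both sides of 0. Furin, which cleaves the receptor on its way to the surface, was at -0.23 ± 0.052 (moderated SE, n = 3, limma adjusted p = 0.0904). It passed with the intensity trend (adjusted p = 0.0412), where 993 of all tested probes passed. With the processed signals the limma adjusted p of Furin was 0.218, and at a loess span of 0.1 it was 0.124. Adam17, a metalloprotease able to cut the activated receptor, was at -0.27 (adjusted p = 0.0968) and -0.18 by its 2 probes. Aph1b, a subunit of gamma-secretase, was at 0.19, 0.19 and 0.13 by 3 probes, with the lowest adjusted p at 0.128.

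Among glycosyltransferases, Pofut1, which adds the first fucose to Notch, was at -0.19 (adjusted p = 0.126) and -0.10 by its 2 probes, and Poglut1, which adds glucose, at 0.16 (adjusted p = 0.184) and 0.05 (limma, n = 3). Of the other receptors Notch4 was at 0.15 (adjusted p = 0.222) and Notch3 at -0.02. In the list of other ligands none met the rule for naming, and its brightest genes were Dlk1 and Dlk2, for ligand-like proteins that lack the receptor-activating domain. The 2 Dlk1 probes were at 0.31 and 0.23 with array 3 near 0 in both. Dlk2 averaged 0.19, from ratios of 0.675, -0.017 and -0.10 on arrays 1, 2 and 3. In the list of other Hes and Hey genes none met it either, and the brightest genes, Hes6 and Hes3, were at -0.09 and 0.10. No role had a probe called lower.

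**Figure D4:**
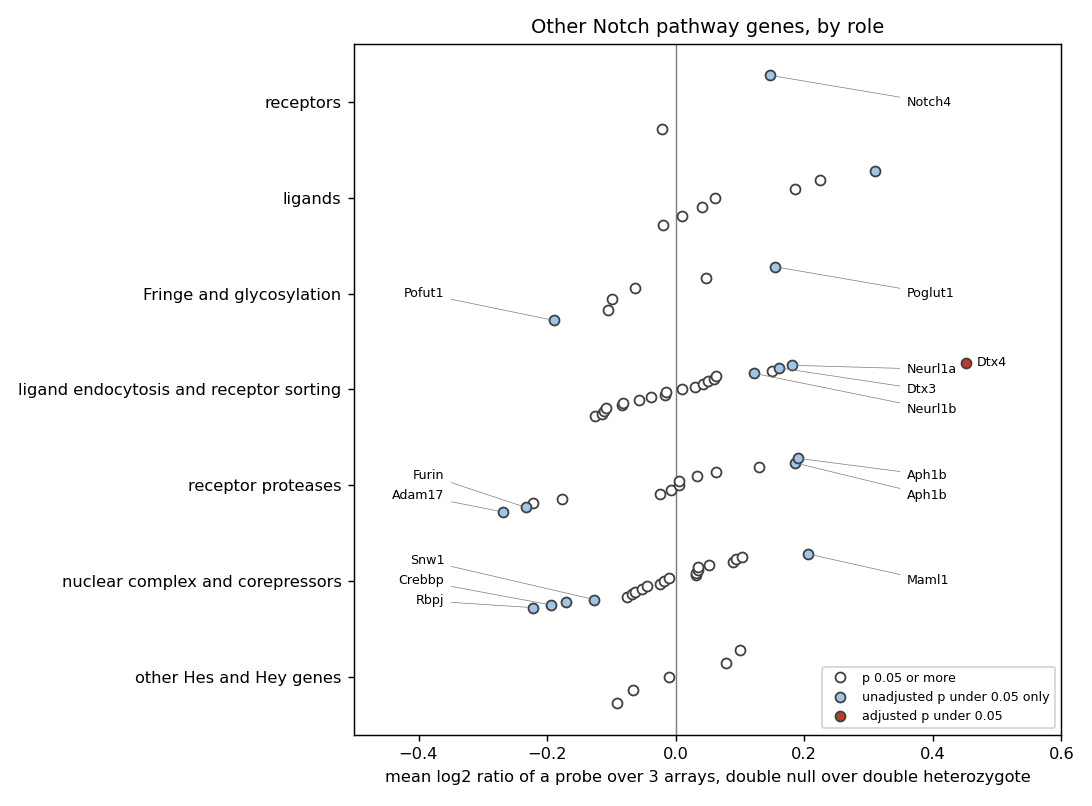
Mean log2 ratio of double null over double heterozygote over the 3 arrays (horizontal axis) for the 75 tested probes of other Notch pathway genes, by role, with 1 point per probe. Dtx4 at 0.45 is the only point with an adjusted p under 0.05, and the names are those given in the text among probes with an unadjusted p under 0.05 and 1 sign on all arrays.

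The promoters of the members were read from RefSeq windows (assembly GRCm38.p6), because Rbpj is known to bind the core TGGGAA, with GTGGGAA as its stronger form. The windows run from 250 bases before to 50 after each start and hold 8 of the 10 members, in 9 windows since Dll1 has 2. Hes1 and Hey1 had no window, so their promoters were not searched. The search covered both strands, and every GTGGGAA is also a TGGGAA. The core TGGGAA occurred in Hes5, Lfng and Hey2, on both strands in each. Of all 32851 windows 25.6% held it on either strand and 1.81% on both. The longer form GTGGGAA was in 6.38%, and all 3 of these genes held it, with a match on both strands in 0.1% of all windows. The 250 bases before the start are printed for these genes, in the direction of transcription, with the core in capitals (TTCCCA where it lies on the other strand).
Hes5 promoter: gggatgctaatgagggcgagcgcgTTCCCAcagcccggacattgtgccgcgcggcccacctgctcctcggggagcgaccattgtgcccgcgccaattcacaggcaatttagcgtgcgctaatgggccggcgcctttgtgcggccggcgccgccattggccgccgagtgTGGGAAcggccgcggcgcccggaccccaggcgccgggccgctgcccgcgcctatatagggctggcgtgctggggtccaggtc
Lfng promoter: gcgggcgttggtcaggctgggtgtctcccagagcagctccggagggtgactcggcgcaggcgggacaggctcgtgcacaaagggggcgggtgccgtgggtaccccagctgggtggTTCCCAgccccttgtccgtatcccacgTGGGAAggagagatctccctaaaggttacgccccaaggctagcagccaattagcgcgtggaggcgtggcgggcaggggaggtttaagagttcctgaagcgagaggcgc
Hey2 promoter: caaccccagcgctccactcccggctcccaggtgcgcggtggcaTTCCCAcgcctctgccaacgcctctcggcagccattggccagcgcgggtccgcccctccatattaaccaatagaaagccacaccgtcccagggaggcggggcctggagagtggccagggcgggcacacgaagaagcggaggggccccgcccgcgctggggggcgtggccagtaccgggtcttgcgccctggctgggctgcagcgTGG

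The printed Hes5 stretch lies at chr4:154960673-154960922 (plus strand), with matches that begin 226 and 82 bases before the start, both in the longer form. The Lfng stretch lies at chr5:140607091-140607340 (plus strand), with matches 135 and 108 bases before the start, of which the nearer has the longer form. The Hey2 stretch lies at chr10:30842784-30843033 (minus strand), with a match 207 bases before the start and another that begins 3 bases before it and crosses it, so that its last 3 letters are not in the printed stretch. A match is a description of the letters and no evidence of binding in these cells. The mean log2 ratios of these genes were -0.11 for Hes5, -0.04 for Lfng and -0.07 for Hey2, none past the threshold.

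The member values were also computed with other normalizations. The scanner software's processed signals and a loess span of 0.1 kept the direction of all 13 member means. Median centring raised the tested probes as a whole, by 0.36, 0.32 and 0.30 on arrays 1, 2 and 3, and turned 7 member means from negative to positive. It called 7 of 13 member probes, where 76.4% of all tested probes passed. With those ratios recentred on the tested probes, an alternative chosen after seeing the data, 54.6% of all tested probes passed. Of the 13 member probes 5 did so, 3 higher (Notch2 A_52_P289213, Jag1 A_52_P634090 and Hes1) and 2 lower (Lfng and Hey2). The 4 normalizations are set side by side in the plot of members by way of normalizing.

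**Figure D5:**
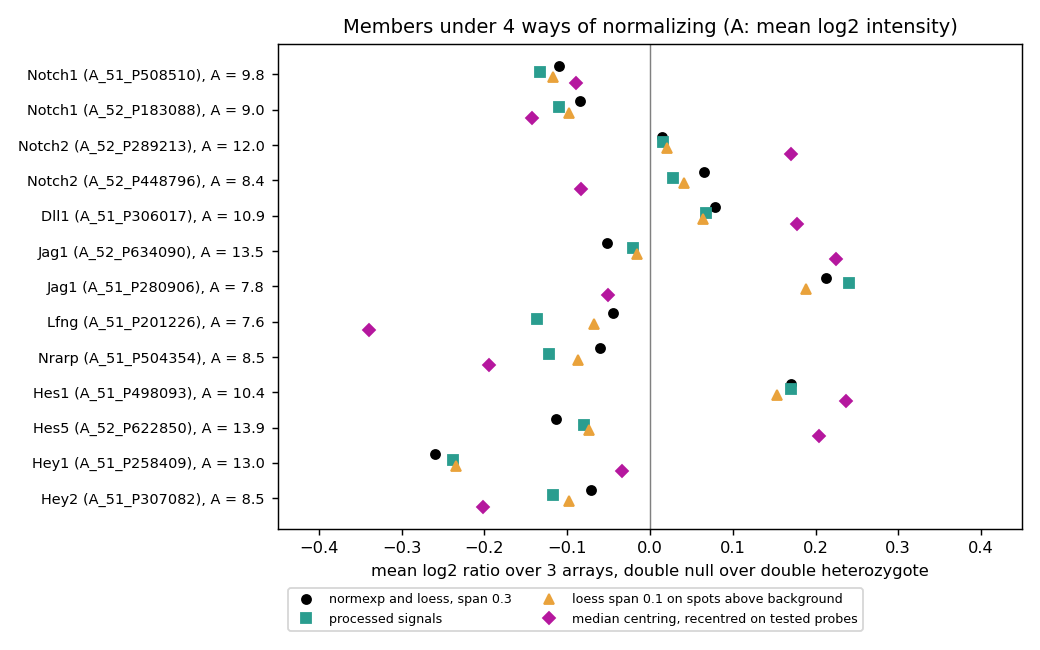
Mean log2 ratio over 3 arrays (horizontal axis) of the 13 tested member probes under 4 ways of normalizing, with the mean log2 intensity A of each probe in its label. The first 3 ways lie close together for each probe, while recentred median centring moves dim probes such as Lfng down and bright probes such as Jag1 A_52_P634090 up.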

How the data were processed

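Total RNA from 3 pools of 10 placodes per genotype was amplified, labelled and hybridised to 3 two-colour Agilent arrays. Per the submitters' processing notes, the authors extracted spots with Agilent Feature Extraction 9.5.1.1. Deposited with each array are mean and local background intensity per channel, a processed intensity that the file headers call background-subtracted and dye-normalized, and a log10 ratio, Cy5 over Cy3. Log2 ratios are in the authors' deposited series table and equalled the scanner's log10 ratios converted to log2 within 2.01e-06, so its scale and direction are settled. Probe positions are the files' own, on mm7. Their place in exons or UTRs was not analysed here.

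From mean intensities, background was corrected with normexp (offset 50), and ratios were normalized within arrays by loess (span 0.3, control spots at weight 0) in limma 3.58.1 and R 4.3.3. Levels are the normalized log2 intensities of a channel after scaling between arrays by Aquantile, which leaves the ratios as they are. The overlap of pools, the SDs of levels and the summed marker levels rest on these scaled values. Between 143 and 175 outlier spots per array were left out, and spots of a probe were averaged. Tested probes were well above background on all 3 arrays in at least 1 channel, Cy3 or Cy5. The mean ratio was tested against 0 (lmFit with an intercept, eBayes, prior degrees of freedom 4.53), adjusted by Benjamini-Hochberg over 25506 probes, with a threshold of 0.05. Intervals are 95% moderated intervals. With 3 arrays, p-values rest on the spread of the array ratios of these pools, moderated towards the spread over all tested probes. The fit was tested on simulated ratios.

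Other pathway genes were named through RefSeq records (GRCm38.p6) for 62 probes by accession, 19 by symbol and 6 by synonym. All member probes are named. Of other lists, genes are named that passed the threshold, or had 1 sign on all arrays and an unadjusted p under 0.05, or, in a list with neither, the 2 of highest mean intensity. A few genes are not reported here by name, though counts and medians include them. Marker genes are given mainly as lists, by the brightest tested probe of a gene. The members and lists were chosen with earlier results of these data known. No gene was named for likeness of pattern, since 3 ratios cannot rank it. Alternatives were other background corrections, normalizations, filters, probe rules, thresholds, array weights, an intensity trend, separate channels and each array left out.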

Additional observations from a re-analysis of the deposited data

How the results depend on the processing

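No member probe was called (limma, adjusted p under 0.05) under any alternative but median centring, with 7 called, all higher, and median centring recentred on the tested probes, an alternative chosen after seeing the data, with 5. The unadjusted p under 0.05 was reached by 1 member probe in the setting as reported and by 2 or 3 with an array left out. Of 231 member values under alternatives, 206 kept direction and side of the threshold, 17 changed sign, and 8 passed the threshold with their direction kept. The median centring and recentring means listed next are only those that changed sign, among member probes and named pathway probes. With median centring the means were 0.24 and 0.18 for Notch1, 0.55 for Jag1 A_52_P634090, 0.13 for Nrarp, 0.53 for Hes5, 0.29 for Hey1, 0.12 for Hey2, 0.10 for Pofut1, 0.23 for Furin, 0.17 for Adam17, 0.27 for Rbpj, 0.53 for Snw1 and 0.34 for Crebbp. After recentring they were -0.083 for Notch2 A_52_P448796, 0.23 and -0.051 for Jag1, 0.20 for Hes5, -0.011 for Notch4, -0.27 for Poglut1, -0.19 for Neurl1a, -0.19 for Neurl1b, 0.21 for Snw1 and 0.0097 for Crebbp. The cause was not tested. With each array left out in turn, means ran from -0.22 to 0.029 and from -0.14 to 0.025 for the Notch1 probes, from -0.012 to 0.047 for Notch2 A_52_P289213, from -0.093 to 0.26 for Dll1, from -0.13 to 0.016 for Jag1 A_52_P634090 and from -0.13 to 0.043 for Nrarp. Hey1 stayed negative, from -0.32 to -0.17, with adjusted p-values from 0.138 to 0.292. Over all tested probes, of which 384 were called, 80.7% of them higher, the counts were 199 (90.5% higher) at a normexp offset of 16, 11 (all higher) at a loess span of 0.1, 19476 (88.3%) with median centring, 13927 (45.3%) after recentring, 993 (64%) with an intensity trend, 21 (95.2%) up to a mean log2 intensity of 15, 1082 (65.2%) at an adjusted p under 0.1, and 86 (95.3% higher, without replicate 3) to 305 with an array left out, with 231 without replicate 2. The processed signals and the series table called 0, with 4417 and 4408 probes at an unadjusted p under 0.05. Channels fitted separately with no replicate block, which drops the pairing on the array, called 185 (93.5% higher). The 1 other pathway call, Dtx4, became 0 with the processed signals, the series table and a span of 0.1. With 1 probe per gene the brightest Dtx4 probe was kept, so the called probe was not tested and the count was 0. The count was also 0 with separate channels without the pairing and with intensities up to 15. It was 0 without replicate 2 or 3 and 1 without replicate 1. The count became 3 with an intensity trend (Dtx4 higher, Rbpj and Furin lower), 4 at an adjusted p under 0.1, 52 with median centring and 41 after recentring. Scaling between arrays by Aquantile leaves ratios as they are by construction.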

Other observations

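The spread of the member levels over the pools was set side by side for the 2 genotypes, each of which had the same dye on every array. For 9 of 13 member probes the SD over the 3 double heterozygote pools was larger than that over the 3 double null pools, as it was for 54.1% of all tested probes. The median SD of the member levels was 0.18 in the heterozygote and 0.08 in the null pools, against 0.10 and 0.09 over all tested probes. The heterozygote pool of array 3 was the highest of its genotype for 7 of 13 member probes, and for 34.9% of all tested probes. For Nrarp the heterozygote levels were 8.50 ± 0.24 and the null levels 8.44 ± 0.05 (SD, n = 3), and for Dll1 they were 10.82 ± 0.31 and 10.90 ± 0.08. Notch2, Hes1 and the Jag1 probe A_51_P280906 had the larger SD in the null pools. No test of these spreads was made, and the members were read on the same 3 arrays.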
